A study of Mus musculus with 5 samples.

Results

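Muscle progenitors with abundant transcripts of Hspa1a, an inducible HSP70 chaperone, were compared with progenitors of the same library that held few or none. Progenitors were barcodes with at least 500 detected genes, at most 10% mitochondrial UMIs (unique molecular identifiers, each counting 1 captured transcript), Rgs5 below 5 UMIs per 10,000, at least 1 UMI of Pdgfra and at least 3000 UMIs in total. Of the 8658 barcodes of the muscle library, 5653 met this rule. Hspa1a at 50 or more UMIs per 10,000 defined the high class of 1572 cells. Hspa1a below 5 per 10,000 defined the low class of 2139 cells. The 1942 cells between the limits entered neither class. The classes together held 3711 of the 39930 barcodes in the 5 libraries.

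The study sequenced sorted tdTomato-positive cells of the Hic1 lineage from C57BL/6J mice, 1 library from resting hindlimb muscle and 4 from epithelioid sarcomas. The muscle animals were Hic1CreERT2/CreERT2;Rosa26LSLtdTomato/+, so both copies of Hic1 carried the tamoxifen-activated Cre that switches on the reporter. The sarcoma animals were Hic1CreERT2/CreERT2;Rosa26LSLtdTomato/LSLtdTomato;Smarcb1FL/FL, with both copies of Smarcb1 open to deletion, and their cells were collected from the shoulder, head, head/ear and hip (sarcomas 1 to 4) at the endpoint. Tamoxifen was given to all animals at 8 weeks of age, at 2.5 mg per day for 5 days (in 100 µL oil), and a washout of 10 days followed. The Cre driver restricts the reporter to cells with Hic1 activity and their descendants, and the labels do not give the number of animals behind a library. The high and low classes came from the same library, so no replicate separates them. Every interval below is an exact 95% interval that covers counting error only, and no p-value was computed between the classes.

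Heat-shock factor 1 (HSF1) is a transcription factor that is held inactive by chaperones and released when misfolded proteins occupy them. It then binds repeated GAA and TTC units, called heat-shock elements, upstream of cytosolic chaperone genes such as Hspa1a, Hspb1 and Dnajb1. Immediate-early genes such as Fos, Jun and Egr1 answer many stimuli within minutes without new protein synthesis. Both groups are known to be induced when tissue is dissociated enzymatically for single-cell work.

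The windows before the start sites of strongly differing chaperone genes are shown first, because they hold the heat-shock element letters that the list is named for. In the 250 bases before each RefSeq start site (GRCm38.p6), 13 letters with 3 alternating units were searched, GAANNTTCNNGAA and its reverse complement TTCNNGAANNTTC, with at most 1 mismatch in the fixed letters. Capitals mark the matched letters, and overlapping matches are merged into 1 run. Hspa1a (chr17:34972157-34972406, minus strand) and Hspa1b (chr17:34959239-34959488, minus strand) are neighbouring HSP70 genes, and their windows were identical at 247 of 250 bases. Hspb1 (chr5:135887669-135887918, plus strand) encodes the small heat-shock protein HSP27.
Hspa1a: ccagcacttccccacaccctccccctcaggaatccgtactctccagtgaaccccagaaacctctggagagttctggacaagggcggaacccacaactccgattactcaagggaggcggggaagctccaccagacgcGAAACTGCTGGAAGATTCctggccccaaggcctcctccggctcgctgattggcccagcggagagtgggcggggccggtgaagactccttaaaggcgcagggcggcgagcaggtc
Hspa1b: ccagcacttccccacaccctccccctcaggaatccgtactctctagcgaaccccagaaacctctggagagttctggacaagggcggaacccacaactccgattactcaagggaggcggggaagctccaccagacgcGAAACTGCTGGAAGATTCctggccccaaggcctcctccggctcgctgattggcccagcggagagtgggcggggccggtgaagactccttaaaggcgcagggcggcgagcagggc
Hspb1: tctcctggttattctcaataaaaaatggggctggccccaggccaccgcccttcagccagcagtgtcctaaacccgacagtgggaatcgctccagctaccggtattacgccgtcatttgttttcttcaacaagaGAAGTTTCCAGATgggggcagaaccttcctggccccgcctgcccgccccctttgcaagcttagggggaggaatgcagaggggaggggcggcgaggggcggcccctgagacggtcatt
The matched run alone is given for 2 further genes, Hsph1 on chromosome 5 (HSP110, which recharges HSP70 with nucleotide) and Dnaja4 on chromosome 9 (an HSP40 co-chaperone).
Hsph1: TTCTCGAAGGCTCGAGAA
Dnaja4: GAACCTCCGCGAACGTTC

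These letters occurred in 6.08% of all 32851 windows and, with no mismatch, in 0.466%. Among the 6484 genes with a window and a mean of 10 CPM or more (CPM, counts per 10⁶ UMIs of the class) they occurred in 366 (5.64%). On the list of HSF1 chaperone targets, 13 of 29 such genes had them: 5 of the 7 whose CPM was at least 2-fold higher in the high class, which are the 5 genes printed above, and 8 of the 22 others. The 5 include Hspa1a, whose difference is fixed by the rule, and Hspa1b, whose window is nearly the same. The shares were not tested. Among the 8 were Hspd1 and Hspe1, mitochondrial chaperone genes that are transcribed away from each other, whose windows overlap and hold a run with no mismatch. The windows of Dnajb1 and Bag3 held no match. Of 30 immediate-early genes with a window, 1 had the letters, Egr2. Of 29 genes at least 2-fold lower in the high class, 1 had them, Duoxa1. Beside the 5.64% of all genes with a window, these counts are not read as a lack of the letters.

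Hspa1a itself, by which the cells were chosen, was spread over the whole range with no gap at either limit. It was at 0 in 981 progenitors and reached 767 UMIs per 10,000 in 1 cell. The high class had a median of 94.1 per 10,000 and the low class 0.896. Summed over cells, Hspa1a stood at 11110 CPM in the high class and at 126 CPM in the low class. At the low limit, the 134 cells with 4 to 5 Hspa1a UMIs per 10,000 had Hspa1b at 2083 CPM and the 95 cells with 5 to 6 had it at 2415 CPM. At the high limit, the 149 cells with 45 to 50 had Hspa1b at 6387 CPM and the 109 cells with 50 to 55 had it at 6406 CPM. Some genes differed more. Across the low limit Hspb1 stood at 273 and 488 CPM and Dnajb1 at 110 and 257 CPM. Across the high limit Hspb1 stood at 908 and 768 CPM, Dnajb1 at 349 and 410 CPM and Igfbp5 at 593 and 406 CPM. The limits cut through a continuous range of Hspa1a.

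**Figure D1:**
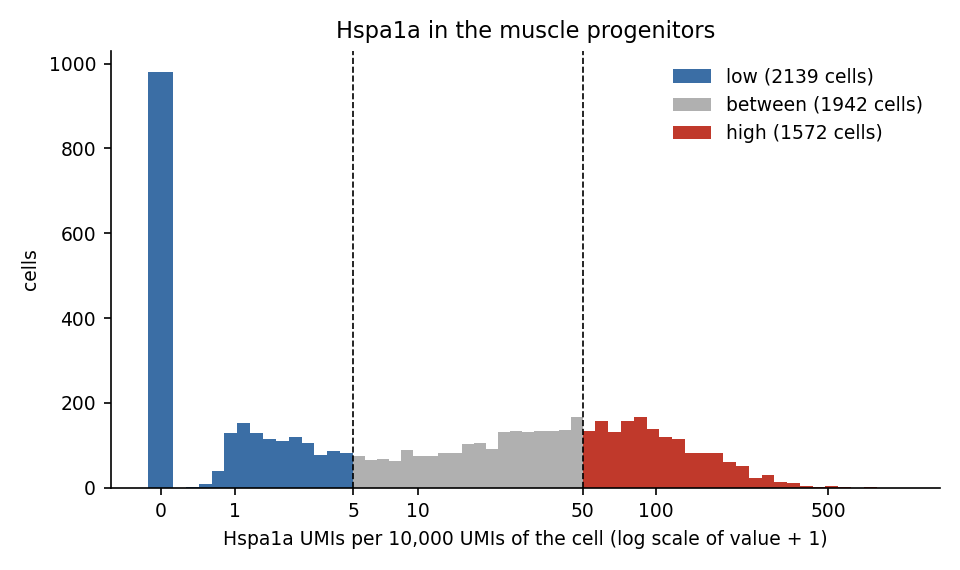
Histogram of Hspa1a in the 5653 muscle progenitors, with UMIs of Hspa1a per 10,000 UMIs of the cell on a log axis and the number of cells on the vertical axis. Dashed lines mark the limits at 5 and 50, colours mark the classes, and 981 cells stand at 0.

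Depth and the markers of the labelled cell type were set beside the classes first. Median UMIs per cell were 9248 in the high class, 8081 in the low class and 9316 between the limits, and median mitochondrial shares were 2.12% and 2.41% in the high and low classes. Decorin (Dcn), a matrix proteoglycan of fibroblasts, stood at 19268 CPM in the high and 18669 CPM in the low class. Hic1 stood at 45.2 and 49.9 CPM and the reporter tdTomato at 1111 and 1066 CPM. Of 12 progenitor markers with a mean of 10 CPM or more, all 12 were within 1.25-fold. Pericyte marker Rgs5, held low by the rule, was at 6.88 and 5.86 CPM. Summed haematopoietic markers were at 5.86 and 4.18 CPM and summed erythroid markers at 1.91 and 1.67 CPM. Summed endothelial markers were at 91.3 CPM in the high and 113 CPM in the low class, and summed myogenic markers at 105 and 93.1 CPM. Mural and tenocyte markers are given beside the results below.

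Across the 8365 genes with a mean of 10 CPM or more over the classes, 37 were at least 2-fold higher in the high class (0.442% of the genes) and 47 were at least 2-fold lower (0.562%). The cells were chosen on this contrast, so these shares are a description. The median log2 ratio over all of them was -0.08, with a 5th percentile of -0.46 and a 95th of 0.20. The share of all genes within 1.25-fold was not counted, so counts within 1.25-fold describe each list only. Of the 37 higher genes, 25 were HSF1 chaperone targets or immediate-early genes. Hspa1a and Hspa1b together supplied 2.19% of the UMIs of the high class and 0.148% of those of the low class.

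Of 35 HSF1 chaperone targets with a mean of 10 CPM or more, 10 were at least 2-fold higher (28.6%, beside 0.442% of all genes). None was at least 2-fold lower, beside 0.562% of all genes. Hspa1a is 1 of the 10 and is fixed by the rule. The list's median log2 ratio was 0.28, beside -0.08 over all genes, and 19 members were within 1.25-fold.

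HSP70 proteins bind unfolded proteins and help them refold, and they were the most abundant members in the high class. Hspa1b (chr17:34956436-34959238), whose coding sequence is nearly that of Hspa1a, stood at 1352 CPM in the low and 10789 CPM in the high class, 7.98-fold higher (7.87 to 8.09). Because the genes are near-identical copies, reads could be split between them, and the separate values of both are uncertain. Hsph1, the nucleotide exchange partner of HSP70, stood at 69.2 and 351 CPM, 5.08-fold higher (4.77 to 5.41). Bag3, which links HSP70 cargo to autophagy, stood at 73.4 and 179 CPM, 2.44-fold higher. Hspa8, the constitutive HSP70, was abundant in both classes, at 977 CPM in the low and 2357 CPM in the high class. By contrast Hspa4, another exchange factor, stood at 56.4 and 47.9 CPM, and Hspa4l at 16.9 and 16.0 CPM.

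HSP40 proteins deliver clients to HSP70. Dnajb1 (chr8:83608193-83612653), the main inducible member, stood at 110 CPM in the low and 634 CPM in the high class, 5.74-fold higher (5.46 to 6.03). Dnaja4 stood at 8.31 and 29.7 CPM, from 149 and 436 UMIs, 3.57-fold higher (2.96 to 4.33). Dnaja1 stood at 324 and 487 CPM, Dnajb4 was 1.21-fold higher, and Dnajb6 stood at 128 and 125 CPM. On the wider list of 22 HSP40 genes that reached 10 CPM, 2 were at least 2-fold higher (9.09%, beside 0.442% of all genes). Another 18 were within 1.25-fold.

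HSP90 and the small heat-shock proteins held the next members. Hsp90aa1, the inducible cytosolic HSP90, stood at 406 CPM in the low and 1600 CPM in the high class, 3.95-fold higher (3.84 to 4.05). Hsp90ab1, the constitutive form, stood at 1181 and 1816 CPM, 1.54-fold higher. Its co-chaperones had ratios near 1: Ahsa1 had a ratio of 1.04, Stip1 of 0.99, Ptges3 of 0.96 and Fkbp4 of 1.16. Hspb1 (chr5:135887919-135889563) stood at 170 and 1046 CPM, 6.14-fold higher (5.90 to 6.38). Cryab, the small heat-shock protein of lens and muscle, stood at 192 and 358 CPM, and Hspb8 at 91.2 and 113 CPM.

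Ubb, a heat-inducible gene that encodes ubiquitin, stood at 1747 CPM in the low and 2449 CPM in the high class, 1.40-fold higher. Other members of the list lay nearer to 1. Serpinh1, the collagen chaperone of the endoplasmic reticulum, had a ratio of 1.03, Sqstm1, an autophagy receptor, of 1.05, and Chordc1 of 1.02. Hsf1 was low in both classes, at 18.7 and 15.9 CPM, and Hsf2 at 28.8 and 24.4 CPM.

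Chaperones of other compartments and the proteasome showed much smaller ratios. Hspa5 (BiP), the HSP70 of the endoplasmic reticulum, stood at 480 CPM in the low and 508 CPM in the high class, and Hsp90b1, its HSP90 partner, at 610 and 474 CPM. No gene of 20 on the unfolded protein response list was at least 2-fold higher or lower. Over all genes, 0.442% were higher and 0.562% lower, so a count of 0 does not set a list of this size apart. The mitochondrial chaperones Hspd1 (1.53-fold higher) and Hspe1 (1.41-fold higher) led a list of 12. None of the 12 reached 2-fold, a count also near the shares over all genes. All 13 TRiC and prefoldin genes, which fold actin and tubulin, and all 31 proteasome genes were within 1.25-fold. Their log2 ratios lay between the 5th and 95th percentiles of all genes (-0.46 and 0.20).

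**Figure D2:**
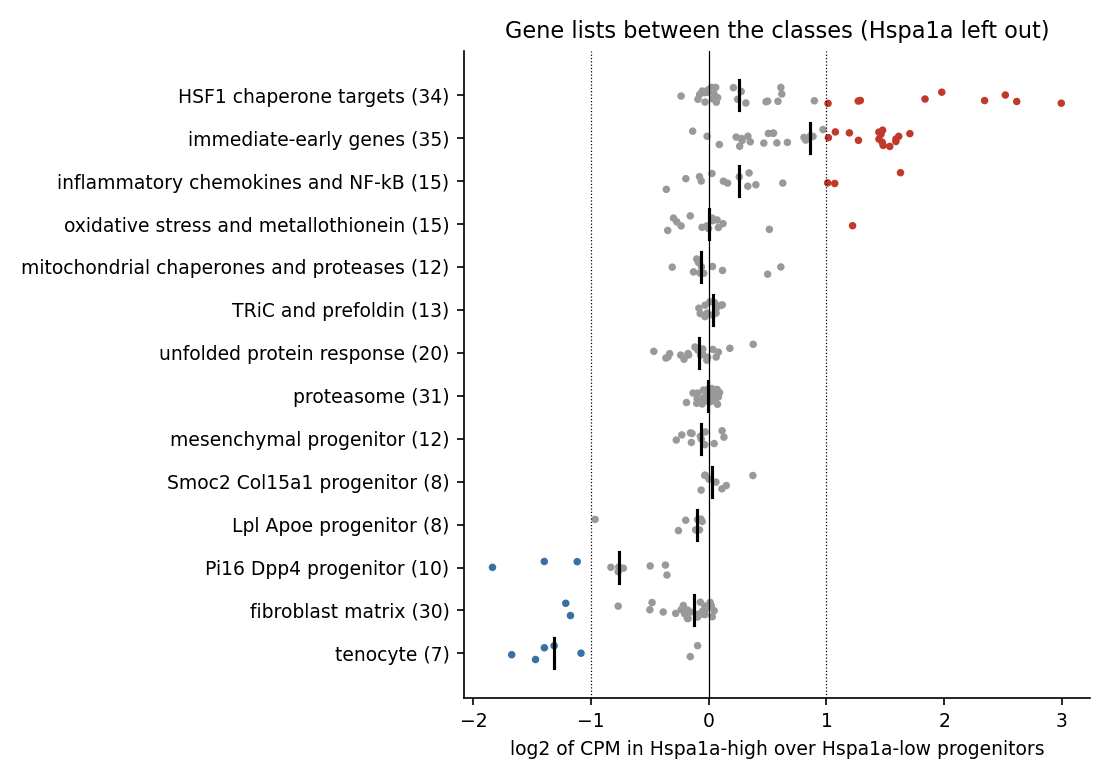
Log2 ratio of CPM in the high over the low class for each gene with a mean of 10 CPM or more, by list, with the number of genes plotted in brackets, Hspa1a left out, and black bars at the median. Red points are at least 2-fold higher and blue points at least 2-fold lower. The proteasome genes lie around 0 and the immediate-early genes have a median near 0.86.

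Of 35 immediate-early genes with a mean of 10 CPM or more, 15 were at least 2-fold higher (42.9%, beside 0.442% of all genes). None was at least 2-fold lower, and the median log2 ratio was 0.86. The AP-1 subunits were the most abundant. Jun stood at 1796 CPM in the low and 5216 CPM in the high class, 2.90-fold higher (2.87 to 2.94). Fos stood at 1421 and 3872 CPM and Junb at 972 and 2925 CPM, while Jund, at 2659 and 5210 CPM, was 1.96-fold higher. Atf3, a stress-responsive transcription factor, stood at 134 and 438 CPM, 3.27-fold higher (3.12 to 3.43). Egr1, a zinc-finger factor induced by growth signals, stood at 923 and 2563 CPM, 2.78-fold higher. Ier2 was 3.06-fold, the anti-proliferative gene Btg2 3.01-fold, Gadd45b 2.79-fold, Gadd45g 2.78-fold and the matricellular gene Cyr61 2.76-fold higher.

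Not every member of the immediate-early list was higher. The Krüppel-like factors Klf4 and Klf2 had ratios of 1.06 and 1.21, and Zfp36l1 and Fosl2 ratios of 0.99 and 0.91. Klf4 was 1.51-fold higher within the Smoc2 Col15a1 state described below. Fosb stood at 193 and 266 CPM, 1.38-fold higher, although its partner Jun was 2.90-fold higher. The orphan receptor Nr4a1 stood at 68.9 and 122 CPM.

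Among 15 inflammatory genes, 3 were at least 2-fold higher (20%, beside 0.442% of all genes). Cxcl1, a neutrophil chemokine, stood at 218 CPM in the low and 673 CPM in the high class, 3.09-fold higher (2.98 to 3.21). Ccl2, a monocyte chemokine, stood at 65.9 and 133 CPM, but 64.7% of its UMIs in the high class lay in 10 cells, and it was lower in the high class within 2 of the 3 progenitor states described below. Cxcl10 stood at 18.5 and 38.8 CPM, with 49.7% of the UMIs of the high class in 10 cells. Ccl11, the most abundant gene of the list, stood at 1967 and 2475 CPM, and Il6 at 18.4 and 16.1 CPM. Hmox1, which degrades haem, was the only gene of 15 on the oxidative stress and metallothionein list past 2-fold, at 35.8 and 83.6 CPM, and Mt1 stood at 1555 and 2221 CPM.

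Of the remaining higher genes, those given here were named after their values were seen. Arc, an activity-regulated gene, stood at 12.4 CPM in the low and 59.5 CPM in the high class. The inositol transporter Slc5a3 was 2.11-fold and the GTPase gene Gem 2.03-fold higher. Tagln, a smooth muscle marker, stood at 8.48 and 27.7 CPM, with 88.7% of its UMIs in the high class in 10 cells and up to 301 in a single cell. Another mural marker, Acta2, stood at 6.86 and 12.9 CPM, with 66.7% in 10 cells. The 12 mural markers summed to 189 CPM in the low and 223 CPM in the high class, and 1 of the 4 that reached a mean of 10 CPM was at least 2-fold higher.

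Of the 47 genes that were at least 2-fold lower, the keratin gene Krt19, named after its value was seen, had the lowest ratio, at 17.9 CPM in the low and 3.27 CPM in the high class. Igfbp5 (chr1:72857932-72874884), a binding protein of insulin-like growth factors, stood at 1374 CPM in the low and 375 CPM in the high class, 3.66-fold lower, and had the lowest ratio among genes with a mean of 50 CPM or more. Sema3c, a secreted guidance cue, stood at 365 and 139 CPM, 2.64-fold lower. Ptx3, a soluble pattern recognition protein, stood at 123 and 38.7 CPM, 3.17-fold lower, and Sfrp4, a secreted Wnt antagonist, at 172 and 67.7 CPM, 2.54-fold lower. Both rest on few cells: 10 cells held 38.2% of the Ptx3 UMIs of the low class and 53.2% of those of the high class. For Sfrp4 these shares were 26.4% and 37.3%. Collagen XIV (Col14a1) stood at 421 and 186 CPM and periostin (Postn) at 238 and 103 CPM. The complement gene C4b was 2.47-fold, the sphingomyelinase gene Smpd3 2.57-fold, thrombomodulin (Thbd) 2.33-fold and the protease gene Mmp3 2.10-fold lower. The glypican Gpc6 was 2.05-fold lower, and endothelin (Edn1) was 1.96-fold lower. The list of 30 fibroblast matrix genes had 2 members at least 2-fold lower, beside 0.562% of all genes, and 24 within 1.25-fold. Col1a1 stood at 5902 and 4513 CPM.

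Markers of 1 progenitor state were also on the lower side. All 10 genes of the Pi16 Dpp4 list were lower in the high class, 3 of them at least 2-fold, with a median log2 ratio of -0.77. Over all genes, the median was -0.08 and 0.562% were at least 2-fold lower. Pi16 itself stood at 1265 CPM in the low and 745 CPM in the high class, Fn1 at 1370 and 803 CPM and Dpp4 at 141 and 85.1 CPM. Wnt2 stood at 23.2 and 6.47 CPM, 3.58-fold lower. Of the 8 genes on the Smoc2 Col15a1 list 7, and of the 8 on the Lpl Apoe list 7, were within 1.25-fold.

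Tenocyte markers were lower as well: 5 of the 7 that reached 10 CPM were at least 2-fold lower, beside 0.562% of all genes. The 9 markers summed to 702 CPM in the low and 504 CPM in the high class. These values rest on few cells. Fibromodulin (Fmod) stood at 95.7 and 34.5 CPM, with 52.4% of the UMIs of the low class in 10 cells. Tenomodulin (Tnmd), at 64.9 and 30.6 CPM, had 49.4% there. Without cells that held a UMI of a tenocyte marker other than Fmod, which left 971 high and 1400 low cells, the log2 ratio of Fmod was 0.37 and 34 of the 37 higher genes were still at least 2-fold higher. The part of tendon cells in the other lower genes was not tested.

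A pair of non-coding transcripts annotated beside the ribosomal RNA repeat moved with the class. Gm42418 stood at 5016 CPM in the low and 2930 CPM in the high class, and Gm26917 at 180 and 72.5 CPM, 2.48-fold lower. Counts of both are uncertain because ribosomal RNA reads can fall on them. With both left out of the class totals, the numbers of genes at least 2-fold higher and lower were 37 and 48. Malat1, a nuclear RNA, stood at 36332 and 33810 CPM.

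The cells between the limits were then added, in steps of Hspa1a. Progenitors were put into 8 bins of Hspa1a, from 981 cells with no UMI to 170 cells with 200 per 10,000 or more. Hspa1b stood at 1026 CPM in the first bin and higher in each following bin, up to 20485 CPM in the last. Dnajb1 stood at 88.5 CPM in the first, 143 CPM at 10 to 20, 431 CPM at 50 to 100 and 1498 CPM in the last bin. Hspb1 stood at 151, 369, 770 and 2272 CPM in the same bins. Hspa5 lay between 463 and 550 CPM over all 8.

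Immediate-early genes and several chaperones were already higher in the cells just above the low limit than in cells with no Hspa1a UMI. Fos stood at 1134 CPM in cells with no Hspa1a UMI, at 2423 CPM in those with 5 to 10 per 10,000 and at 5756 CPM in the last bin. Atf3 stood at 97.9, 260 and 673 CPM in these 3 bins. In the same bins Hspb1 stood at 151, 454 and 2272 CPM, Dnajb1 at 88.5, 167 and 1498 CPM, and Hsp90aa1 at 361, 526 and 2804 CPM.

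Igfbp5 was level over the first bins and low only in the upper ones. It stood at 1344 CPM with no Hspa1a, 1236 CPM at 10 to 20, 478 CPM at 50 to 100 and 120 CPM at 200 or more. Fn1 stood at 1337, 1395, 938 and 496 CPM in these bins. Pdgfra, of which the rule required a UMI in every cell, stood at 549, 505, 457 and 435 CPM, and tdTomato lay between 1049 and 1156 CPM over all 8 bins. The last bin had a median of 7148 UMIs per cell, below the 9585 of the cells at 50 to 100.

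**Figure D3:**
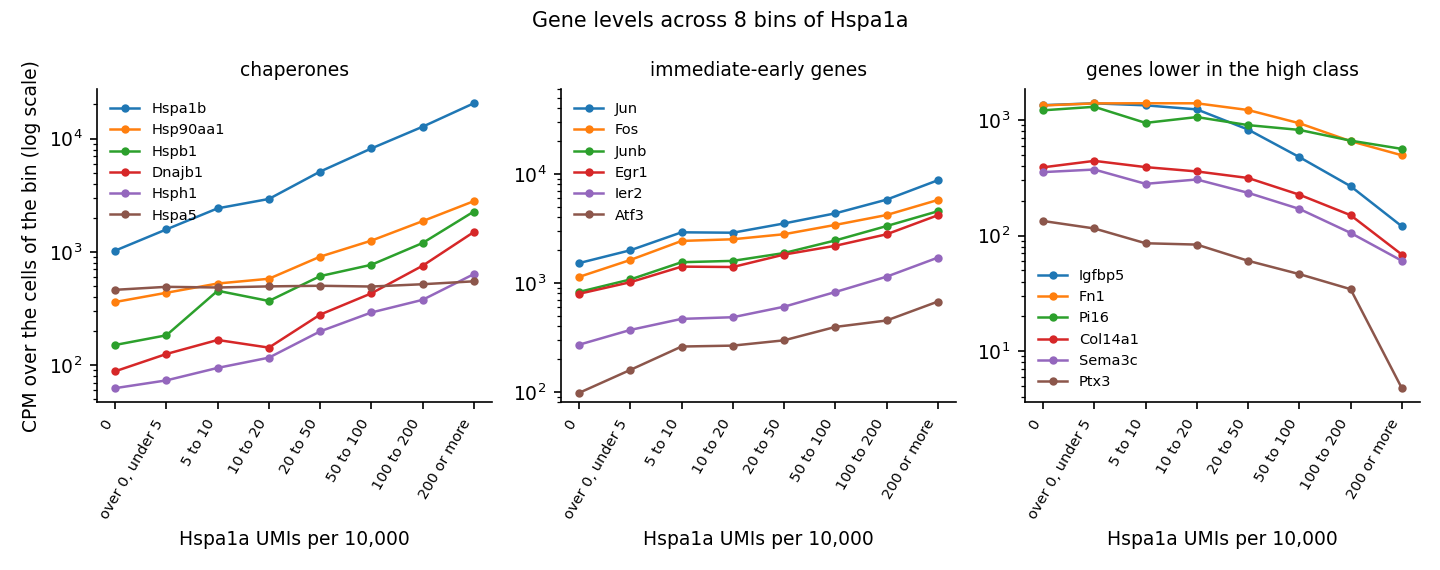
CPM on a log axis over 8 bins of Hspa1a UMIs per 10,000, for 6 chaperones, 6 immediate-early genes and 6 genes lower in the high class. Each point sums all progenitors of its bin, without replicates. Hspa1b runs from 1026 to 20485 CPM, Hspa5 lies between 463 and 550 CPM, and Igfbp5 runs from 1344 down to 120 CPM.

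Genes other than Hspa1a were then summed in single cells. The 34 chaperone genes other than Hspa1a and Hspa1b took a median of 149 UMIs per 10,000 in high cells and 85.8 in low cells. Of the 1572 high cells, 699 (44.5%, interval 42.0 to 47.0%) exceeded the 95th percentile of the low class, 157 per 10,000. The 39 immediate-early genes took a median of 316 per 10,000 in high and 90.4 in low cells. A sum at or above 128 per 10,000, the 5th percentile of the high class, was found in 755 of the 2139 low cells (35.3%, interval 33.3 to 37.4%).

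**Figure D4:**
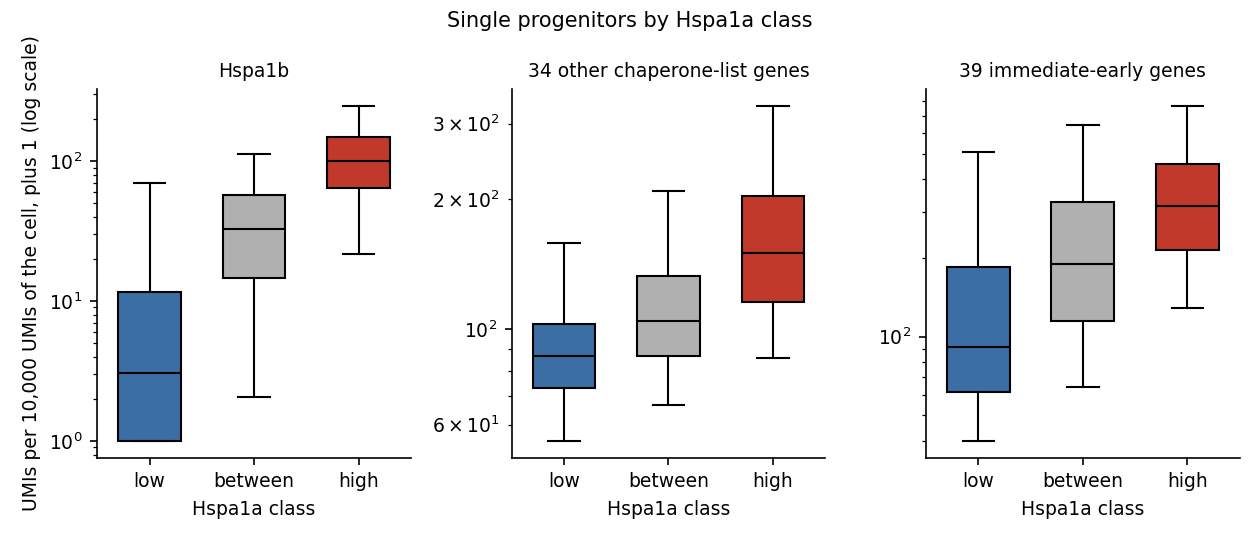
Boxes of UMIs per 10,000 in single progenitors, plus 1 on log axes, for Hspa1b, for 34 other chaperone-list genes and for 39 immediate-early genes, by Hspa1a class. Boxes span the quartiles with a line at the median and whiskers reach the 5th and 95th percentiles. The medians of the low class are 2.08, 85.8 and 90.4 and those of the high class 99.3, 149 and 316.

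Hspa1b parted from Hspa1a in a minority of cells. Of the high cells, 1305 (83.0%) also had Hspa1b at 50 or more per 10,000 and 33 (2.10%) had it below 5. Of the low cells, 174 (8.13%, interval 7.01 to 9.37%) had Hspa1b at 50 or more and 1387 (64.8%) had it below 5. Within the low class, these 174 cells had Hspb1 at 761 CPM against 76.7 CPM in the 1387, a ratio of 9.92 (9.06 to 10.9). Dnajb1 stood at 484 and 54.2 CPM and Hsph1 at 245 and 38.1 CPM. Jun stood at 4404 and 1191 CPM, and Igfbp5 at 521 and 1501 CPM. These differences between cells that all counted as Hspa1a-low pointed the same way as those between the classes for each of these genes. With both genes required to be past the limits, 1305 high and 1387 low cells remained, and the number of genes at least 2-fold lower was 88 in place of 47.

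Low cells with many immediate-early transcripts differed in another way. The 755 low cells at or above 128 per 10,000 were set beside the other 1384. By this choice Fos stood at 3585 and 194 CPM. Dnajb1 stood at 256 and 28.0 CPM, a ratio of 9.15 (8.12 to 10.3), and Hspa1b at 2747 and 562 CPM. Cxcl1 stood at 550 and 28.9 CPM. Ptx3 stood at 300.2 and 22.3 CPM, a ratio of 13.5 (11.8 to 15.4), whereas it was 3.17-fold lower in the high than in the low class. Postn (359 and 170 CPM) and Fmod (166 and 55.7 CPM) were higher here too. Igfbp5 stood at 1587 and 1253 CPM, and Sema3c at 256 and 427 CPM.

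Progenitors were also split into 3 states by which of 3 marker lists took the largest share of a cell's UMIs. The Pi16 Dpp4 state held 1497 cells, with 308 (20.6%) in the high and 642 (42.9%) in the low class. The Smoc2 Col15a1 state held 2805, with 929 (33.1%) high and 963 (34.3%) low. The Lpl Apoe state held 1351, with 335 (24.8%) high and 534 (39.5%) low. The Pi16 Dpp4 state therefore made up 19.6% of the high class and 30.0% of the low class. These shares share the library and were not tested.

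The chaperone differences were present in all 3 states. Within the Pi16 Dpp4, Smoc2 Col15a1 and Lpl Apoe states, 10, 10 and 9 HSF1 chaperone targets were at least 2-fold higher. Each count includes Hspa1a, which is fixed by the rule. Over all genes, 57 of 8257, 51 of 8349 and 28 of 8300 were at least 2-fold higher. Hspb1 was 10.7-fold, 5.46-fold and 4.70-fold higher in that order, and Dnajb1 8.33-fold, 6.34-fold and 3.81-fold. The low class of the Lpl Apoe state started from a higher level, with Dnajb1 at 206 CPM against 48.9 CPM in the Pi16 Dpp4 state. Cryab stood at 212 CPM in the low and 687 CPM in the high cells of the Pi16 Dpp4 state and at 178 and 230 CPM in the Smoc2 Col15a1 state. The numbers of immediate-early genes at least 2-fold higher were 16, 21 and 7, and Fos was 2.91-fold, 3.40-fold and 1.71-fold higher.

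Genes of the lower side depended more on the state. Igfbp5 was lower within each, at 3017 CPM in the low and 863 CPM in the high cells of the Pi16 Dpp4 state, 278 and 143 CPM in the Smoc2 Col15a1 state, and 1100 and 535 CPM in the Lpl Apoe state. Ptx3 was 1.83-fold, 3.34-fold and 3.38-fold lower in that order. Pi16, a gene that defines the first state, had ratios of 0.67, 0.86 and 1.12, and Sema3c of 0.48, 0.70 and 0.72. Fmod had a ratio of 1.34 in the first state and was 8.01-fold lower in the Lpl Apoe state. C4b was not lower within the Smoc2 Col15a1 state, with a log2 ratio of 0.27. Tagln, 12.7-fold higher within the Pi16 Dpp4 state, had ratios of 0.94 and 0.76 in the others.

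Mural cells of the same library, which the rule left out by their Rgs5, were given the same limits. Of 439 mural cells, 138 (31.4%) were high and 142 low, with median UMIs of 4672 and 4106. Rgs5 stood at 5703 CPM in the high and 8132 CPM in the low mural cells. Hspb1 stood at 343 CPM in the low and 3483 CPM in the high cells, a ratio of 10.2 (8.92 to 11.6), Dnajb1 at 68.3 and 572 CPM and Hsph1 at 29.3 and 236 CPM. Junb stood at 712 and 3738 CPM, a ratio of 5.25 (4.78 to 5.78), and Klf4 at 135 and 286 CPM, a ratio of 2.12 (1.66 to 2.71). For Klf4 the progenitors together had 1.06, with 1.04, 1.51 and 1.01 within the Pi16 Dpp4, Smoc2 Col15a1 and Lpl Apoe states. Igfbp5 stood at 884 and 653 CPM and Sema3c at 62.7 and 62.4 CPM.

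With fewer cells, more mural genes passed 2-fold: 314 of 8830 were higher (3.56%) and 333 lower (3.77%). The higher genes included 11 HSF1 chaperone targets and 28 immediate-early genes. Of the 37 genes at least 2-fold higher in progenitors, 26 were so in mural cells too, which is 70.3% of the progenitor genes and 8.28% of the mural genes. Hspa1a, on which both sets of cells were split, is among the 11 and the 26. Each cell thinned to 3000 UMIs gave 492 higher and 623 lower mural genes, so single low-count genes of this comparison are not interpreted.

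High cells were almost absent from the sarcomas. Of 6391, 6418, 6089 and 1109 cells that met the progenitor rule in sarcomas 1 to 4, the numbers at 50 or more Hspa1a UMIs per 10,000 were 0, 0, 2 and 0. Taken as 3 counts over the cells, a count of 0 allows shares of up to 0.0469%, 0.0467% and 0.271% in sarcomas 1, 2 and 4, while the upper bounds of the exact two-sided interval are 0.0577%, 0.0575% and 0.332%. In sarcoma 3, the 2 cells are 0.0328%. In muscle the share was 27.8% (interval 26.6 to 29.0%). Hspa1a over all such cells stood at 4086 CPM in muscle and at 124, 126, 87.3 and 9.72 CPM in the 4 sarcomas, all 4 below muscle. Hspa1b stood at 5025 CPM in muscle and at 93.5, 193, 229 and 440 CPM. The labels do not give the dissociation protocol or time of either tissue, so tissue and handling cannot be told apart.

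A limit of 20 per 10,000 left 7, 4, 38 and 0 high cells in sarcomas 1 to 4, too few for a test, so the lower limit of 10 was used, with 83, 40 and 127 high cells in sarcomas 1 to 3 and 1 in sarcoma 4, which did not enter. Sums per library and class were tested with edgeR's quasi-likelihood test with the library as a block. Of 15565 genes, 0 were higher (0%) and 0 lower (0%) at an adjusted p under 0.05. At an unadjusted p under 0.05, 521 genes were higher and 700 lower, and DESeq2 called 40 higher and 51 lower. Hspa1a, which chose the classes, itself missed the adjusted threshold with the 3 libraries. The numbers called depended on single libraries: edgeR called 45 higher and 214 lower genes without sarcoma 1, 147 and 498 without sarcoma 3, and 0 and 0 without sarcoma 2. Each of these fits has 1 residual degree of freedom, against 2 in the main fit. Their p-values and counts are therefore not read as evidence of a difference.

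Hspa1b had the same direction in the 3 sarcomas, at 662, 1118 and 1855 CPM in high and 76.3, 179 and 182 CPM in low cells of sarcomas 1 to 3. Klf2 had ratios of 3.64, 3.19 and 3.07, with a log2 ratio of 1.74 over the 3 (edgeR adjusted p = 0.1055). Fos stood at 2316, 1588 and 1840 CPM in high and 929, 707 and 939 CPM in low cells, with a log2 ratio of 1.17 (edgeR adjusted p = 0.1273). Dnajb1 had ratios of 2.64, 8.63 and 1.51 (edgeR adjusted p = 0.4706). These calls depended on the fit. After thinning each cell to 3000 UMIs, edgeR's adjusted p was 0.0007993 for Klf2, 0.02345 for Fos and 0.0052 for Dnajb1. DESeq2 gave adjusted p-values of 5.63e-24 for Klf2, 2.247e-13 for Fos and 0.1024 for Dnajb1. Hspb1 differed between the tumours, at ratios of 0.31, 1.78 and 6.02. Its log2 ratio of 0.64 over the 3 was -0.52 without sarcoma 3 (edgeR adjusted p = 0.03934). That fit has 1 residual degree of freedom, and the ratios of the sarcomas left in it, 0.31 and 1.78, lie on opposite sides of 1. Its p-value is therefore not interpreted. Hspa8 had ratios of 0.97, 0.99 and 0.75.

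Of 36 HSF1 chaperone targets tested in the sarcomas, 0 passed the adjusted threshold, 4 with Hspa1a among them were higher and 1 was lower at an unadjusted p under 0.05, and their median log2 ratio was 0.09, beside -0.01 over all genes. Of 39 immediate-early genes 0 passed, 17 were higher at an unadjusted p under 0.05 and 0 lower, with a median of 0.43. Over all 15565 genes, 521 were higher and 700 lower at that unadjusted threshold. DESeq2 called 2 chaperone targets, Hspa1a and Hspa1b, and 7 immediate-early genes higher, Btg2, Dusp1, Egr1, Fos, Jund, Klf2 and Zfp36. Over all genes it called 40 of 14056 higher. The fit after thinning called 3 and 4 higher, beside 21 of 12779 over all genes. Without sarcoma 3, edgeR called 5 chaperone targets higher and 1 lower, and 19 immediate-early genes higher and 1 lower. Over all 14425 genes of that fit, 147 were higher and 498 lower. Without sarcoma 1 it called 3 and 2 higher, beside 45 of 15038 over all genes. Both of these fits have 1 residual degree of freedom, so their counts are not interpreted.

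Other cell properties moved with the class. Birc5, a gene of dividing cells, stood at 81.1, 61.9 and 24.3 CPM in low cells of sarcomas 1 to 3 and had ratios of 0.246, 0.187 and 0.125 in high over low cells, below 1 in all 3 (edgeR adjusted p = 0.1055, DESeq2 adjusted p = 1.124e-07). In sarcoma 3, Smarcb1 stood at 68.9 CPM in high and 17.2 CPM in low cells, Col3a1 at 18170 and 6095 CPM and Pi16 at 1034 and 330 CPM, while Cdkn2a stood at 6.06 and 123 CPM. In sarcomas 1 and 2, Smarcb1 had no UMI in high cells and stood at 1.68 and 2.38 CPM in low cells. The intervals of these ratios reach up to 1.38 and 2.00, so they show no difference. Median UMIs were 17341, 18673 and 19968 in high and 25424, 27848 and 21211 in low cells. Their part in the values was not tested.

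**Figure D5:**
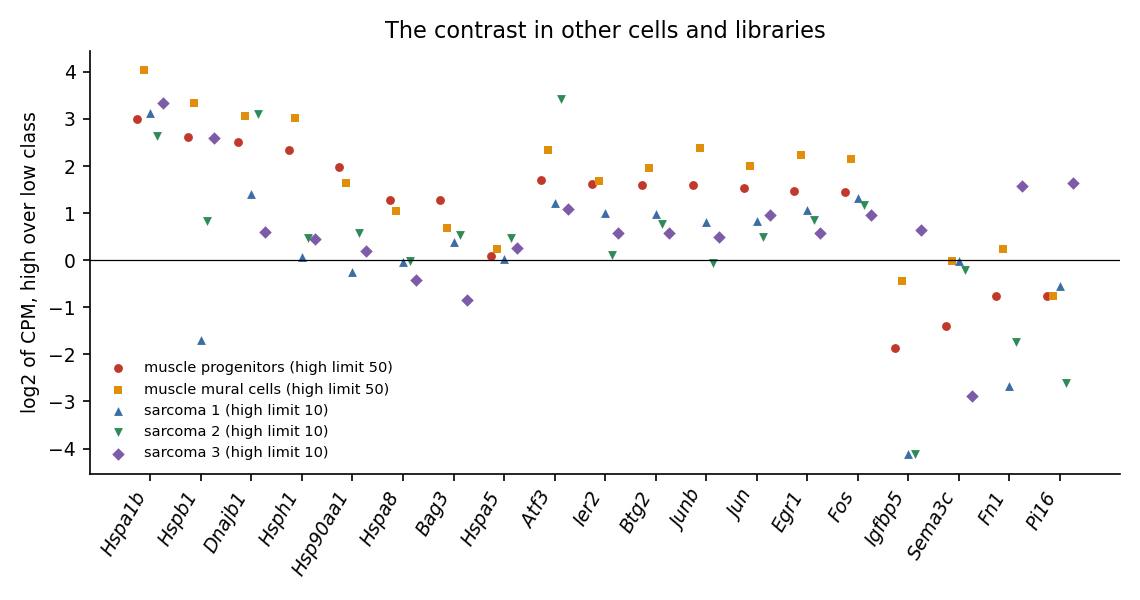
Log2 ratio of CPM in high over low cells for 19 genes in muscle progenitors, muscle mural cells (both with a high limit of 50 per 10,000) and sarcomas 1 to 3 (high limit 10 per 10,000). Hspa1b lies above 0 in all 5 sets, whereas Hspb1 and Igfbp5 lie on both sides of 0 in the sarcomas. The Igfbp5 points of sarcomas 1 and 2 each rest on 1 UMI in high cells.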

How the data were processed

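Single-cell RNA sequencing of 5 sorted mouse libraries used a droplet kit that counts the 3′ ends of transcripts (10x Genomics), per the labels' protocols. The authors deposited raw UMI counts per gene and barcode, which per the file headers came from Cell Ranger 6.0.1, on mm10 per the submitters' processing notes. For the annotation release and the cell calling settings, the sources used here give nothing. The cells, limits and gene lists were chosen with earlier results of these data known.

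Counts were summed over the cells of a class with Python 3.11.15, numpy 2.4.6, scipy 1.17.1 and pandas 2.3.3 and scaled to CPM. Ratios carry exact conditional binomial intervals and shares exact Clopper-Pearson intervals, at 95%. Genes with a mean of 10 CPM or more were counted at 2-fold, with a floor of 3 counts per class, and with no test, since 1 library holds both classes. UMIs of 1 library are not independent replicates. Named genes were Hspa1a, Hspa1b, Hsf1, Pdgfra, Rgs5, Hic1 and tdTomato, the chaperone list, 2 to 4 abundant members of other lists, and the 15 largest ratios on each side at a mean of 50 CPM or more; other genes were named after their values were seen. Some genes that this rule selects are counted but not reported here by name. Doublets were kept, with Scrublet (scanpy 1.11.5) as an alternative.

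The sarcoma test used edgeR 4.0.16 in R 4.3.3 (TMM, filterByExpr, Benjamini-Hochberg), with DESeq2 1.42.0 as an alternative. The intended limit of 20 per 10,000 left 1 library with 20 cells in each class, so a limit of 10 was tested. No label ties the sarcomas to separate animals. Their p-values therefore reflect the spread between these libraries alone, and that spread may be technical. No 2 libraries shared more than 22 barcodes, and 28 cells of the classes had a barcode also present in a sarcoma library. Gene positions are from GENCODE (GRCm38), matched by identifier for 27645 of 28001 features, and promoter windows from RefSeq (GRCm38.p6). The tests were checked on simulated data.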

Additional observations from a re-analysis of the deposited data

How the results depend on the processing

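In the progenitors, 189 named genes were recomputed under 21 alternatives, 4 of them added after seeing the data. The number of HSF1 chaperone targets at least 2-fold higher was within 1.5 times the reported 10 under each of the 21. All 37 higher genes had ratios above 1 except under a high limit of 100 per 10,000 and within the Smoc2 Col15a1 state (36 each), and within the Pi16 Dpp4 and Lpl Apoe states and without cells holding a tenocyte marker (35 each). The number of genes at least 2-fold lower, 47, was 105 at a high limit of 100, 18 at a limit of 25, 72 with at least 10000 UMIs per cell, 14 at 50 CPM or more, 10 within the Smoc2 Col15a1 state and 88 with Hspa1a and Hspa1b both past the limits. Without a filter on level, 348 genes were higher and 563 lower. Within the Pi16 Dpp4 state 57 genes were higher, and within the Lpl Apoe state 7 immediate-early genes were. Single genes with few cells behind them turned direction, and the cause was not tested: the log2 ratio of Tagln was -0.12 at a limit of 100, -0.087 and -0.40 within the Smoc2 Col15a1 and Lpl Apoe states and -0.70 without tenocyte-marker cells. Ccl2 was at -0.37 and -0.36 within the Pi16 Dpp4 and Lpl Apoe states and at -0.33 without tenocyte-marker cells. Within the Pi16 Dpp4 state Comp was at 1.68, Tnmd at 0.32 and Fmod at 0.42, and without tenocyte-marker cells Fmod was at 0.37. That removal leaves no UMI of Comp or Tnmd in either class. Their value of 0.40 there is set by the floor of 3 counts and is not a change of direction. C4b was at 0.27 within the Smoc2 Col15a1 state.

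In mural cells, thinning to 3000 UMIs gave 492 higher and 623 lower genes, and a minimum of 5000 UMIs gave 585 lower genes. In the sarcomas, the 0 higher and 0 lower genes became 40 and 51 with DESeq2 and 21 and 34 after thinning. Leaving out 1 library at a time gave 0 to 147 higher and 0 to 498 lower genes, in fits with 1 residual degree of freedom. Without the library as a block 0 and 0 genes were called, with 339 at an unadjusted p under 0.05. No test could be made at a high limit of 50, or at 20, and sarcoma 4 did not enter, so leaving it out gives the same fit. No paired analysis was possible in muscle because 1 library holds both classes. The mural class held 138 high cells, and the classes of sarcomas 1 to 3 held 40 to 127.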
